A study of Mus musculus with 3 samples.

Results

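The transcripts of 10 genes that act upstream of Dux were examined for recovery with YTHDF2, a reader of N6-methyladenosine (m6A) in RNA, from mouse ESCs (embryonic stem cells). They were chosen by symbol as published activators and repressors of Dux or of the 2C-like state and make up 10 of the 49997 genes in the count table. Dppa2 and Dppa4 were taken as activators, and Trim28, Kdm1a, Chaf1a, Chaf1b, Smchd1, Rif1, Pcgf6 and Usp7 as repressors or cofactors of repression. All 10 passed the filter on low counts and were tested.

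RNA immunoprecipitation sequencing (RIP-seq) was performed in E14 mouse ESCs given doxycycline (Dox) for 24 h. The series held 3 libraries, 1 input and 2 YTHDF2 IP replicates, and all of them came from Dox-treated cells. The Dox system that the study describes carries an inducible Dux transgene together with tdTomato under the Mervl promoter, but the labels of these libraries do not say that the E14 cells carry it. The cells were kept on gelatin with leukemia inhibitory factor. The labels give no strain, clone or separate culture for the IP replicates, so a p-value here measures only the spread between these libraries, which may be technical. An IP with a control antibody and cells without Dox were not analysed here. Because the input has no replicate, its own spread is unknown. The libraries are bulk, so fewer cells with a transcript and less of it per cell cannot be told apart.

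DUX is a transcription factor that switches on the genes and retrotransposons of the 2-cell (2C) embryo. In ESCs its own gene is held silent by several chromatin pathways, among them TRIM28 with H3K9 methylation, the demethylase LSD1, the histone chaperone CAF-1, SMCHD1, RIF1 and the Polycomb complex PRC1.6, while DPPA2 and DPPA4 bind its promoter and activate it. YTHDF2 acts in the cytoplasm, where it recruits the CCR4-NOT deadenylase to the RNA it binds, and m6A is laid down mostly at an A within GGAC, often as GGACT.

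To relate the recovery of each transcript to sequence that could carry m6A, the exons were searched for GGACT on the transcribed strand only. Each GGACT also counts as a GGAC. The motif occurred in 7 of the 10 genes. Dppa2, Dppa4 and Chaf1a held none in their merged exons, although they held 3, 5 and 16 copies of GGAC. Among all 19554 tested genes with a sequence, 88.2% held at least 1 GGACT. For the 7 genes that hold it, the copy nearest to the stop codon of the longest coding RefSeq transcript is shown with 8 bases on each side, as DNA letters of the sense strand from RefSeq GRCm38.p6, with the motif in capitals.
Trim28, chr7:13029529-13029549, plus strand, exon 12, coding: tcaggctgGGACTgtgccacc
Kdm1a, chr4:136550727-136550747, minus strand, exon 20, 3′ UTR: agctactgGGACTcctagttt
Chaf1b, chr16:93901033-93901053, plus strand, exon 12, coding: gagcataaGGACTcccgacac
Smchd1, chr17:71349684-71349704, minus strand, exon 46, coding: gtgaacgaGGACTtggacaat
Rif1, chr2:52121063-52121083, plus strand, exon 36, coding: cttcaactGGACTcagaagat
Pcgf6, chr19:47034291-47034311, minus strand, exon 11, 3′ UTR: cagagctgGGACTctgccctc
Usp7, chr16:8691153-8691173, minus strand, exon 30, coding: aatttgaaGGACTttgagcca
The copies in Usp7 and Rif1 lay 124 and 130 bases before the stop codon, and that in Kdm1a lay 111 bases after it. Those in Smchd1, Pcgf6, Chaf1b and Trim28 were farther away, at 247, 328, 518 and 899 bases. A match gives the letters only, and methylation of these sites was not measured in these libraries.

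The libraries were of like depth, with total counts of 36986994 (input), 35259827 (IP replicate 1) and 35888743 (IP replicate 2). Mates of a read pair had been counted singly, so a count is closer to a read end than to a fragment. Each of 7 ESC markers was present in the input, at 261 to 1510 CPM (counts scaled by the library total), and their sum was 6168 CPM in the input and 7204 and 7151 CPM in the IP libraries. The sum of 5 markers of the 2C-like state was 1679 CPM in the input and 2782 and 2770 CPM in IP. Markers of fibroblasts (6 genes, with Col3a1 at 0 throughout) summed to 34.4 to 37.2 CPM, those of trophoblast to 26.5 CPM in the input and 57.3 and 55.1 CPM in IP, and those of primitive endoderm to 6.38, 11.1 and 6.99 CPM. Most of the input sum lay in 1 gene for fibroblasts (Thy1, 26.9 CPM) and for trophoblast (Eomes, 24.9 CPM). Thy1 went from 994 input counts down to 498 and 543 in IP, whereas Pdgfrb, also a fibroblast marker, rose from 251 to 749 and 623. The part of these other cell types in the values below was not tested.

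The 10 genes were expressed over a wide range. On the scale of RPKM (CPM divided by exonic length in kilobases, with TMM-scaled library sizes), input levels ran from 7.92 for Smchd1 to 561 for Trim28. The order in the input was Trim28, Dppa2, Dppa4, Usp7, Kdm1a, Chaf1b, Chaf1a, Rif1, Pcgf6 and Smchd1. In both IP libraries Trim28, Dppa2 and Dppa4 again stood highest and Rif1, Pcgf6 and Smchd1 lowest. The middle of the order changed, since the level of Kdm1a lay below that of Chaf1b in IP. Usp7 (58.3 and 58.1 RPKM) and Chaf1b (58.04 and 58.8 RPKM) could not be ranked there, their order differing between the 2 IP libraries.

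**Figure D1:**
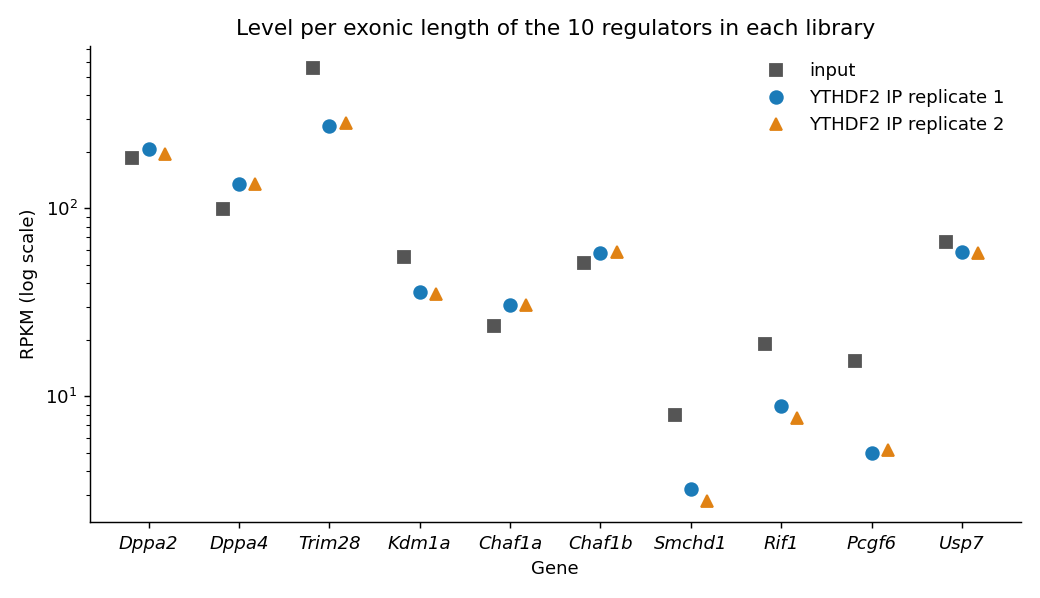
Level of each regulator in RPKM (vertical, log scale) in the input (square), IP replicate 1 (circle) and IP replicate 2 (triangle). The IP points of a gene lie close together, and the gap between input and IP is widest for Pcgf6, Smchd1, Rif1 and Trim28, where IP is lower.

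Together the 10 genes held 0.332% of all input counts, with a 95% Wilson interval from 0.330 to 0.334. They held less of the IP libraries, namely 0.240% in replicate 1 (0.239 to 0.242) and 0.238% in replicate 2 (0.237 to 0.240). Because PCR copies are not independent molecules, these intervals describe counting error alone. Most of that drop lay in Trim28, which made up 52.4% of the counts of the 10 genes in the input and 37.97% and 39.7% in IP. Without Trim28 the other 9 genes took 0.158% of the input and 0.149% and 0.144% of the IP libraries.

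To determine whether these transcripts were recovered with YTHDF2, the ratio of IP to input was tested with the quasi-likelihood F test of edgeR, adjusted over all 19601 genes tested by the Benjamini-Hochberg method. Enriched and depleted genes were those past a fold of 2 whose adjusted p was under 0.05. None of the 10 was enriched, beside 15.0% of all genes tested, and 3 were depleted, beside 13.0% (28.0% either way). The depleted transcripts were Pcgf6, Smchd1 and Rif1. DESeq2 also called none of the 10 enriched, and Dppa2, which was higher in IP, had an unadjusted edgeR p of 0.0435. With no demand on the fold, 3 of the 10 were higher in IP (28.4% of all genes) and 6 were lower (28.9%, or 57.2% in either direction), while Dppa2 did not pass. The median log2 fold change of the 10 was −0.41, compared with 0.01 over all genes tested, whose quartiles were −0.72 and 0.81. All 10 ratios had the same sign in both IP libraries, as did those of 17538 of the 19601 genes tested. Both ratios of a gene share the 1 input, so such agreement says little about the 10. The log2 ratio of IP replicate 1 to replicate 2 had an SD of 0.0987 over the 10 genes and was at most 0.21. Its SD was 0.124 across the 9012 genes whose IP libraries averaged 500 or more counts, as those of each of the 10 do.

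**Figure D2:**
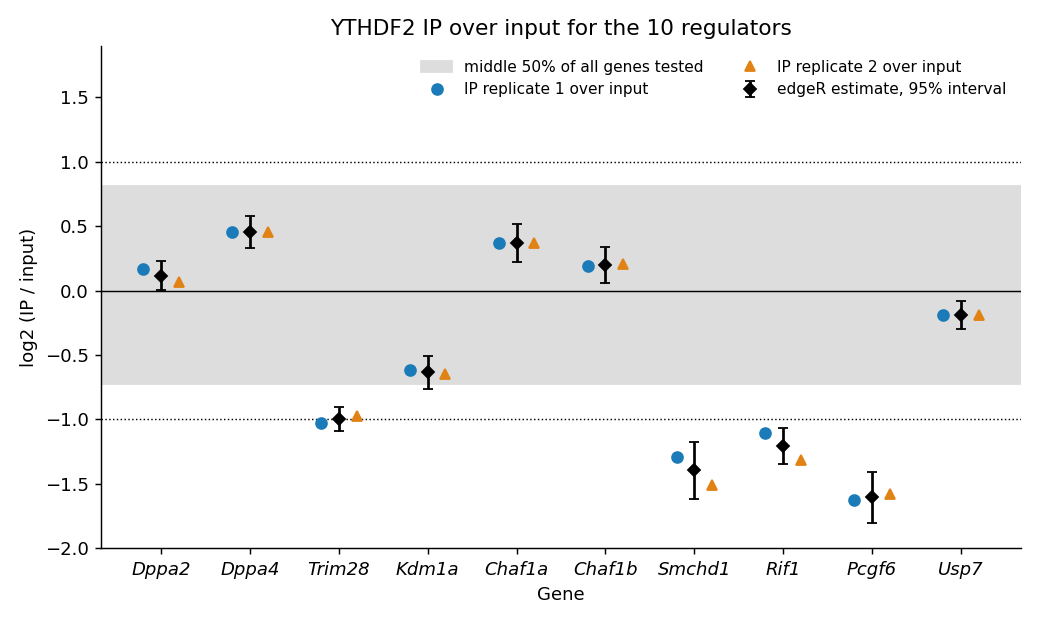
Log2 ratio of IP to input for each regulator, with IP replicate 1 (circle), IP replicate 2 (triangle) and the edgeR estimate with its 95% interval (diamond and bar). The grey band is the interquartile range of all genes tested and the dotted lines mark a fold of 2. Only Pcgf6, Smchd1 and Rif1 lie wholly below the lower dotted line, and Trim28 lies on it.

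The activators were not lowered. Dppa4 (plus strand of chromosome 16, 48283735 to 48294292, mm10) encodes a small DNA-binding protein that pairs with DPPA2. It was counted 5349 times in the input, 7467 times in IP replicate 1 and 7605 times in IP replicate 2. Both IP libraries were thus above the input, and Dppa4 rose 1.37-fold, at 0.45 ± 0.062 (SE) on the log2 scale, edgeR adjusted p = 4.98e-08. Dppa2 (plus strand of chromosome 16, 48310274 to 48319513) encodes the other partner, which is required with DPPA4 for transcription of Dux. The input held 12691 counts of it, and IP held 14517 and 13764, log2 ratios of 0.16 and 0.07. Both were above the input, replicate 2 by less than the difference between the IP libraries, and the log2 fold change of 0.12 ± 0.056 (SE) had an edgeR adjusted p of 0.0727. The 95% interval of Dppa2 (0.0036 to 0.229) lay below that of Dppa4 (0.33 to 0.58) in the reported fit. With a trend on GC content removed Dppa2 and Dppa4 were close, at 0.49 and 0.51. The difference between the 2 genes was not tested. The genes are direct neighbours on the same strand, 15981 bases apart with 0 annotated genes between them. In RPKM, Dppa2 stood 1.88 times above Dppa4 in the input and 1.54 and 1.43 times above it in IP.

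Of the corepressors, Trim28 and Kdm1a were both lower in IP without passing a fold of 2. Trim28 (plus strand of chromosome 7, 13024152 to 13031032) encodes the scaffold that KRAB zinc finger proteins use to bring SETDB1 to chromatin. The input held 64304 counts, the IP libraries only 32153 and 33968, log2 ratios of −1.03 and −0.97. The IP libraries thus lay on either side of a fold of 2, and the log2 fold change of −0.9999 ± 0.046 (SE, 95% interval −1.09 to −0.91) had an edgeR adjusted p of 1.08e-20. Its fold of 1.9998 was short of the threshold by less than the spread between the IP libraries, so that its place outside the depleted transcripts is not a firm one. Kdm1a (minus strand of chromosome 4, 136550533 to 136602787) encodes the H3K4 demethylase LSD1, with 6135 input counts against 4074 and 4055 in IP. It fell 1.55-fold in IP, at −0.63 ± 0.064 (SE) with an edgeR adjusted p of 5.29e-11, and the IP libraries were closer to each other than to the input. The size of the fall of Kdm1a varied with the correction. With a trend on exons per kilobase removed it was at −0.21 (edgeR adjusted p = 0.0067), and with a trend on GC content removed at −0.80. Relative to Dppa2, the RPKM level of Trim28 changed from 3.03 times in the input to 1.33 and 1.48 times in IP.

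The CAF-1 subunits both rose by a small amount. CAF-1 places new histones H3 and H4 on replicated DNA, and its large subunit is encoded by Chaf1a (plus strand of chromosome 17, 56040416 to 56068026). For Chaf1a, 2775 counts in the input stood against 3657 and 3718 in IP, a 1.29-fold rise (log2 0.37 ± 0.074 SE, edgeR adjusted p = 4.25e-05). Chaf1b (plus strand of chromosome 16, 93883900 to 93906115), the middle subunit, rose 1.15-fold, from 3658 to 4252 and 4372 counts (log2 0.20 ± 0.069 SE, adjusted p = 0.0143). In each case the IP libraries differed by less than their distance from the input. The 95% intervals of the subunits overlapped, at 0.22 to 0.52 for Chaf1a and 0.057 to 0.34 for Chaf1b, and Chaf1b stood 2.15 times above Chaf1a in RPKM in the input and 1.895 and 1.92 times above it in IP. With a trend on GC content removed neither subunit passed, and the sign of Chaf1b turned (−0.036, with Chaf1a at 0.046). Chaf1b also did not pass in DESeq2 (adjusted p = 0.0782) or with a trend on exonic length removed (edgeR adjusted p = 0.112), nor did either subunit under a fixed dispersion of 0.1 (0.707 for Chaf1a and 0.854 for Chaf1b). With a trend on exons per kilobase removed Chaf1b was instead higher, at 0.64 (edgeR adjusted p = 3.65e-10), and Chaf1a was at 0.54.

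Smchd1 and Rif1 were both depleted. SMCHD1 is a noncanonical SMC protein known for X inactivation and for silencing the human relative of Dux, and RIF1 sets replication timing and holds repeats and 2C genes silent in ESCs. Smchd1 (minus strand of chromosome 17, 71344489 to 71475366) was counted 1981 times in the input but 825 and 722 times in IP. It fell 2.63-fold (log2 −1.40 ± 0.11 SE, edgeR adjusted p = 1.06e-13), and each IP library alone was past a fold of 2. Rif1 (plus strand of chromosome 2, 52072815 to 52126769) fell 2.31-fold, from 9232 counts to 4382 and 3845 (log2 −1.21 ± 0.068 SE, edgeR adjusted p = 1.21e-15). IP replicate 2 was lower than replicate 1 for both genes, with log2 ratios of −1.51 against −1.29 for Smchd1 and −1.31 against −1.10 for Rif1. These were the 2 largest differences between the IP libraries among the 10 genes, and they were smaller than the fall itself. Both lost the call with the GC trend removed, at −0.87 for Smchd1 and −0.55 for Rif1, and under a fixed dispersion of 0.1, with adjusted p-values of 0.0577 and 0.108. Smchd1 also lost it with a trend on exons per kilobase removed, at −0.96.

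Pcgf6 had the lowest ratio of the 10 in the reported fit, whereas with the GC trend removed Trim28 (−1.59) was lower than Pcgf6 (−1.14). Its protein is the Polycomb group ring finger subunit that defines PRC1.6, a complex that represses germline and 2C genes in ESCs. Pcgf6 (minus strand of chromosome 19, 47033617 to 47050939) went from 2654 input counts down to 877 and 918. The IP libraries were close to each other and each past a fold of 2 on its own, a 3.04-fold fall (log2 −1.60 ± 0.098 SE, edgeR adjusted p = 4.21e-17). Of the 3 depleted transcripts it was the only one that kept its call with the GC trend removed (−1.14) and under the fixed dispersion (adjusted p = 0.0256).

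Usp7 (minus strand of chromosome 16, 8688722 to 8757067) encodes a deubiquitinase known for stabilising MDM2, UHRF1 and DNMT1 and for associating with Polycomb complexes. Its 13912 input counts compare with 12481 and 12622 in IP. The IP libraries were nearly equal and slightly under the input, and Usp7 fell 1.14-fold, at −0.19 ± 0.053 (SE) with an edgeR adjusted p of 0.00264. With scaling by library totals its edgeR adjusted p was 0.144. The sign of so small a value was not stable, as it was 0.15 with the trend on exons per kilobase removed, and removal of the GC trend left −0.034, which did not pass. Ordered by log2 fold change from the lowest, the 10 genes were Pcgf6, Smchd1, Rif1, Trim28, Kdm1a, Usp7, Dppa2, Chaf1b, Chaf1a and Dppa4. The 95% intervals of Pcgf6 and Smchd1 overlapped, as did those of Smchd1 and Rif1, of Rif1 and Trim28, of Dppa2 with Chaf1b and with Chaf1a, of Chaf1b with Chaf1a and with Dppa4, and of Chaf1a and Dppa4.

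The depleted genes had the lowest GC content of the 10, and the lowest levels in RPKM, though not in counts, where Rif1 stood above Dppa4, Kdm1a, Chaf1b and Chaf1a in the input. The merged exons of Rif1, Smchd1 and Pcgf6 had 39.2%, 42.3% and 43.3% GC, at percentiles 3.18, 10.98 and 14.5 of the tested genes. Trim28 lay at the other end, with 59.6% GC at percentile 95.0. Over all 19554 genes the log2 fold change went up with GC content (Spearman rho 0.314, a description across genes, which are not independent). Genes under 42% GC had a median of −0.66 and 31.2% of them were depleted, whereas those at 58% GC or above had a median of 0.62 and 2.75% were depleted. Rif1 fell below the median of its range of GC content, as did Smchd1 and Pcgf6 in the range from 42% to 46% (median −0.40), and Dppa2, in that same range, lay above it. The part of GC content in the recovery of these transcripts was not tested beyond the removal of the trend.

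**Figure D3:**
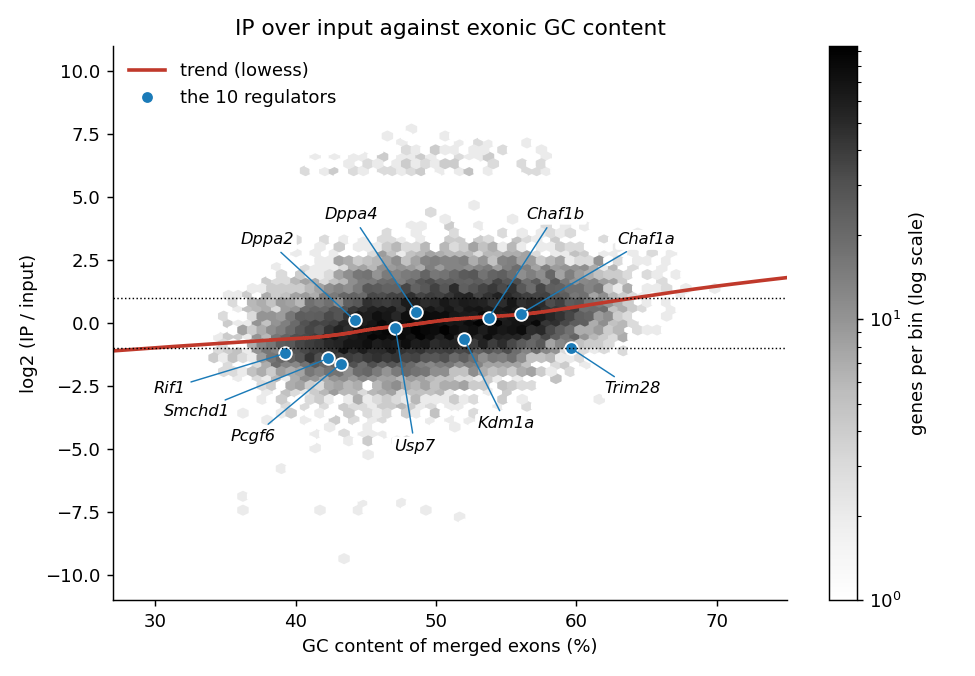
Log2 ratio of IP to input (vertical) against GC content of the merged exons in percent (horizontal) for all genes tested, as bins shaded by their number of genes on a log scale, with the 10 regulators as blue points and a lowess trend as the red line. Trim28 and Kdm1a lie well below the trend at their GC content, and Pcgf6, Smchd1 and Rif1 lie below it at low GC content, while Dppa2 and Dppa4 lie above it.

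Removal of this trend changed which regulators passed. Trim28 then fell by 1.59 on the log2 scale, past the threshold, and Kdm1a fell by 0.80, short of it. Pcgf6 and Trim28 were the depleted transcripts under that correction, against Pcgf6, Smchd1 and Rif1 without it. Dppa2 rose to 0.49 ± 0.056 (SE, adjusted p = 1.47e-09 in the edgeR test), close to Dppa4 at 0.51 ± 0.062. Chaf1a, Chaf1b and Usp7 were at 0.046, −0.036 and −0.034, with adjusted p-values of 0.625, 0.69 and 0.624. Scaling to TPM raised the median of all genes by 0.151 and turned no sign among the 10, and there Dppa2 passed at any fold (0.27, edgeR adjusted p = 2.30e-05) while Usp7 did not (−0.037, adjusted p = 0.584). Under a fixed dispersion of 0.1 only Pcgf6 of the 10 passed at any fold. Of all calls, 53.6% were enrichments in the reported fit and 64% were so after scaling to TPM.

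**Figure D4:**
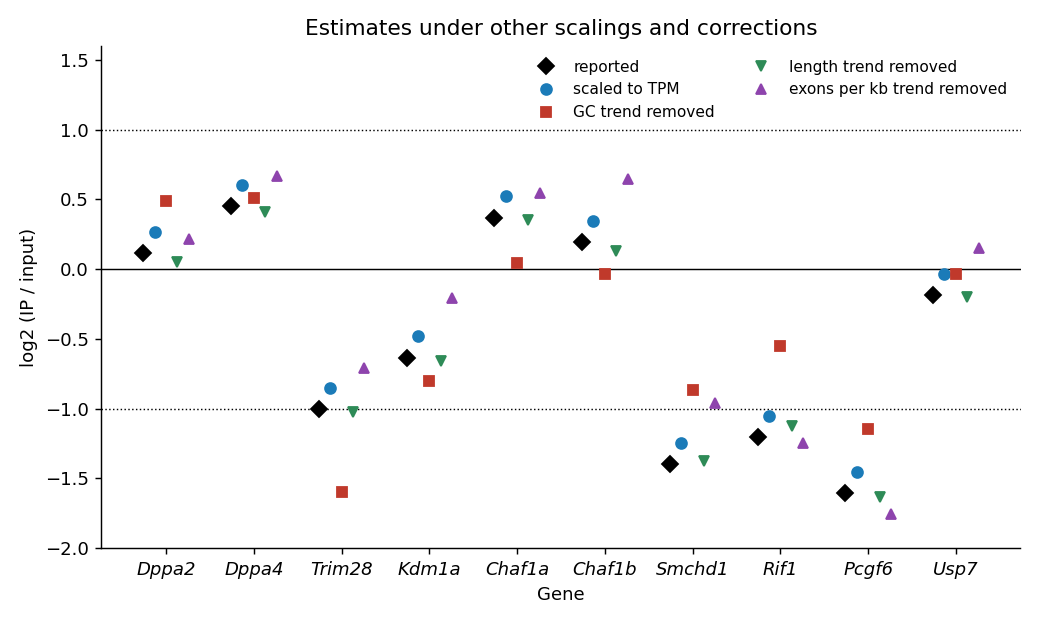
Log2 ratio of IP to input for each regulator in the reported edgeR fit (diamond), scaled to TPM (circle), and with a trend on GC content (square), exonic length (downward triangle) or exons per kilobase (upward triangle) removed. Dotted lines mark a fold of 2. Chaf1b changed sign with the GC trend removed and Usp7 with the exons per kilobase trend removed, while Pcgf6 stayed below the lower dotted line under every setting drawn.

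The genes also differed in length, exon structure and motif content. Merged exonic length ran from 1534 bases in Dppa4 to 13706 bases in Rif1 (percentile 96.8), and the number of merged exons from 7 in Dppa2 and Dppa4 to 48 in Smchd1. The depleted transcripts were not alike in exon density, as Smchd1 had 6.78 exons per kilobase (percentile 94.2), Rif1 2.63 and Pcgf6 1.86 (percentile 37.7). Of the GGACT motif printed above, the long transcripts of Rif1 and Smchd1 held 10 and 8 copies in merged exons, Usp7 6, Chaf1b 4, Pcgf6 3, and Trim28 and Kdm1a 2 each. Per kilobase, Chaf1b was the densest with 1.97 copies (percentile 89.1), and Smchd1 (1.13) and Usp7 (1.01) were next. The 3 genes without the motif, Dppa2, Dppa4 and Chaf1a, all had ratios above 0, though Dppa2 did not pass. Chaf1b with its 4 copies also lay above 0, as did 9838 of all 19601 genes tested. The 3 depleted genes all held the motif, as did 88.2% of the tested genes with a sequence. Over all tested genes the opposite order was seen, with a median log2 fold change of −0.22 in the 2307 genes without GGACT and 0.03 in the 17247 genes with it, and the former were shorter (median 975 against 3465 bases).

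Parts of 3 regulators are shared with genes on the opposite strand, from which reads had been left out because strand was not used. In Trim28 this concerned 438 bases (13.5% of its exonic length, shared with Gm31649), in Kdm1a 578 bases (18.3%, Luzp1) and in Chaf1a 620 bases (18.7%, Ubxn6). The other 7 had no overlap.

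Other genes of the same complexes were then described as a list of 59, all of which passed the filter. In IP, 3 of the 59 were enriched (15.0% of all genes) and 14 were depleted (13.0%). At any fold 18 were higher (28.4% of all genes), 31 were lower (28.9%) and 10 did not pass, and the median log2 fold change was −0.18. With the GC trend removed 10 partners were depleted, 8 of them among the 14, and 2 of the 3 remained enriched, while scaling to TPM kept 10 of the 14 depleted. With the CAF-1 subunits stand 7 partners and histone chaperones, of which 2 were enriched and 3 depleted (median 0.07). Daxx, an H3.3 chaperone, rose from 4113 counts to 10928 and 11125 (1.38 ± 0.062 SE). Pcna, the sliding clamp that brings CAF-1 to replication forks, fell from 18901 to 4592 and 4693 (−2.07 ± 0.055), and Rbbp4, the small CAF-1 subunit, fell by 1.73 on the log2 scale. The Rbbp4 transcript was therefore depleted where Chaf1a and Chaf1b were slightly higher in IP.

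Among 11 silencing partners of TRIM28, 4 were depleted (13.0% of all genes) and none was enriched (15.0%). At any fold 2 were higher (28.4% of all genes) and 6 lower (28.9%), with a median of −0.18. Sumo2, a modifier attached to TRIM28, fell 5.61-fold in IP, and Uba2, a subunit of the enzyme that activates it, fell 2.81-fold. Cbx1, which encodes HP1 beta, fell 2.42-fold. Of 11 genes of the LSD1-CoREST and ZMYM2 complexes 2 were depleted, near the 13.0% of all genes (median −0.32). Among them was Hdac1, a histone deacetylase, which fell from 9705 counts to 1974 and 2133. Kdm1a at −0.63 lay between that median and Hdac1 at −2.28.

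The 11 further PRC1.6 genes split evenly at any fold, with 5 higher (28.4% of all genes) and 5 lower (28.9%). Of them 2 were depleted, beside 13.0% of all genes (median 0.14). Cbx3, which encodes HP1 gamma, had the lowest value of the whole list and fell from 4969 counts to 738 and 652 (−2.88 ± 0.089 SE). Rnf2, the ubiquitin ligase of PRC1, fell 2.63-fold. Of 5 genes for H3K9 methylation, 1 was enriched, near the 15.0% of all genes (median 0.51). It was Suv39h2, a methyltransferase of heterochromatin, counted 609 times in the input and 1543 and 1292 times in IP (1.18 ± 0.128 SE).

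Of 4 partners of SMCHD1 and RIF1, 1 was depleted, beside 13.0% of all genes (median −0.71). It was Ppp1cb, a catalytic subunit of the phosphatase that RIF1 recruits, which fell 3.96-fold. Among 4 partners and substrates of USP7, 1 was depleted, beside the same 13.0% (median −0.75). The 3 other activators of Dux on the list included Trp53, which encodes p53 and fell 3.08-fold. Thus 1 of the 3 was depleted, again beside 13.0% (median −0.61). None of 3 genes of the TIP60-EP400 complex was enriched (15.0% of all genes) or depleted (13.0%) by the edgeR call. At any fold 2 of them were lower, beside 28.9% of all genes (median −0.17). Groups of 3 or 4 genes are too small to be set apart from these shares. Rbbp4, Hdac1 and Daxx, and with them Hira (enriched), Rcor3 (depleted), Ring1, Ehmt2 and Ppp1ca (not called), also have exons on alternate sequences in the annotation, so their values and the counts of their groups are uncertain.

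**Figure D5:**
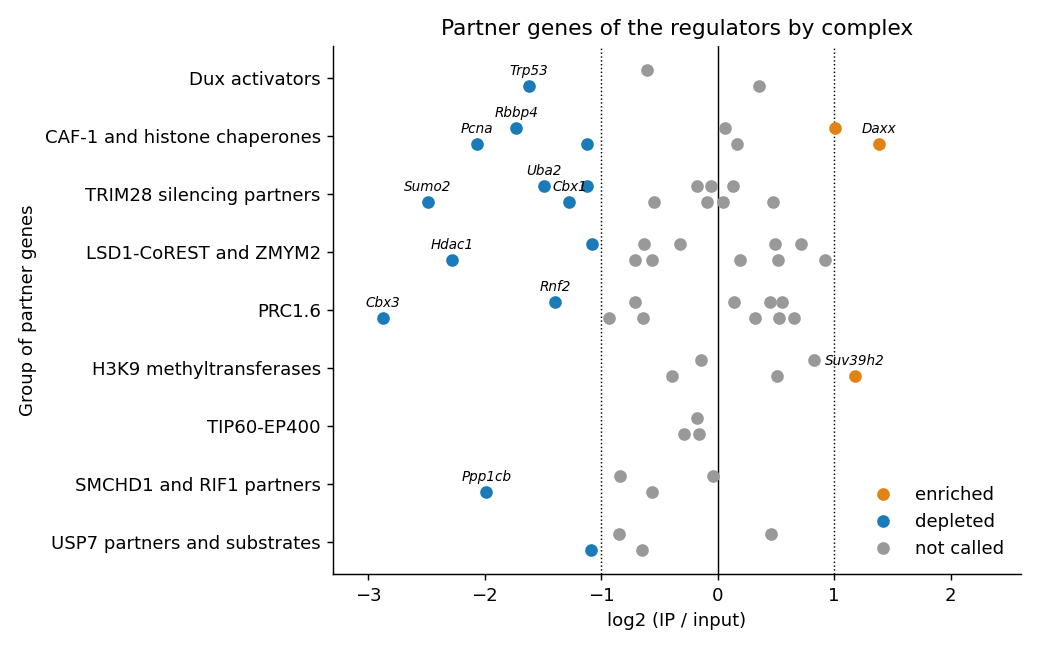
Log2 ratio of IP to input (horizontal) for the 59 partner genes, one point each, by group (vertical), with enriched genes in orange, depleted genes in blue and others in grey; dotted lines mark a fold of 2. Depleted genes reach −2.88 (Cbx3), and the enriched genes do not go above 1.38 (Daxx).

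For reference, Dux itself, annotated as Duxf3, was counted 281 times in the input, 582 times in IP replicate 1 and 319 times in IP replicate 2 (log2 0.64 ± 0.399 SE, edgeR adjusted p = 0.241). Its ratio to the input differed far more between the IP libraries than that of any of the 10 regulators. Its exons lie also on an alternate sequence, and whether reads of a Dux transgene are among its counts was not tested. Zscan4c, a target of DUX with near-identical copies that make its count uncertain, was enriched at 1.14 ± 0.05 (SE). It was the only one of the 5 markers of the 2C-like state to be enriched, beside 15.0% of all genes. The median log2 fold change of the 5 was 0.41, with the lowest at −0.02 for Usp17la (edgeR adjusted p = 0.774). The study lists Dux, Zscan4a, Zscan4c and Usp17la as bound by YTHDF2, from its RIP-seq and from PCR after IP. In the fit used here neither Dux nor Usp17la was enriched.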

How the data were processed

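Per the file headers, the authors counted reads over the exons of mm10 RefSeq genes with featureCounts 2.0.3 and deposited these counts unnormalized. Mates were counted singly, strand was not used, and reads on several places or genes were left out by default. The submitters' processing notes name fastp 0.19.4, HISAT2 2.2.1 and DESeq2 1.40.2. The methods of the study describe an IP from cleared lysate, whereas the labels describe RNA taken with Trizol before the IP, and the counts cannot tell which was done.

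The regulators and partner lists were chosen with earlier results of these data known. The test was run in edgeR 4.0.16 under R 4.3.3 (filterByExpr, TMM factors of 0.957, 1.02 and 1.02, robust dispersion and robust glmQLFit, glmQLFTest). The fit has 1 residual degree of freedom per gene, from the IP libraries. Its common dispersion of 0.00538 equals a biological coefficient of variation of 7.33%. Log2 ratios of single libraries used 0.5 added to each count. A floor of 3 counts is 0.0811 CPM in the input and 0.0851 and 0.0836 CPM in IP. Named genes were all 10 regulators, up to 12 called partners of largest absolute log2 fold change with 1 direction in both IP libraries, and reference genes. Marker genes at 0 and genes with a limit of annotation are named beside that limit, chosen after their values were seen. Thy1, Eomes, Pdgfrb and Usp17la were also named after their values were seen. The spans of all 10 regulators equal those of RefSeq GRCm38.p6. DESeq2 1.42.0, other scalings, no filter, halved counts, a fixed dispersion, trend corrections and left-out libraries were alternatives.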

Additional observations from a re-analysis of the deposited data

How the results depend on the processing

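No paired analysis was possible because 1 input library without a number stands against both numbered IP libraries, which a replicate block cannot pair. Under the other settings that give a test, 110 of 120 values of single regulators kept their direction and their side of the call at a fold of 2. Most regulators were not called in the reported fit, so that count says little about the 3 depleted ones. The 5 values that lost a call were 3 of Smchd1 and 2 of Rif1. At any fold, Dppa2 passed under 5 of these settings. With the GC trend removed Chaf1b was at −0.0357, and with the exons per kilobase trend removed Usp7 was at 0.153, both with the sign turned. Trim28 passed with halved counts (−1.002), with the GC trend removed (−1.59) and with the length trend removed (−1.02). A fixed dispersion of 0.1 left 1 depleted regulator, 0 enriched and 8 depleted partners, and 1577 enriched and 1531 depleted genes. A test against a fold of 2 (glmTreat) left 1 enriched partner and 1746 enriched and 1456 depleted genes. The cause was not tested. Without IP replicate 1 or 2, by fold alone, 3 to 4 regulators, 14 partners and 3716 to 3727 genes were depleted, and 0 regulators, 2 to 3 partners and 3964 to 4039 genes were enriched; the fourth regulator was Trim28, without IP replicate 2. The exons per kilobase trend, glmTreat and a fit without the robust option were chosen after seeing the data. The single input limits every ratio, and depth was least for Smchd1.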
